A study of Mus musculus with 66 samples.

Results

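The genes described here are 7 subunits of the GABA-A receptor, Gabra2, Gabra3, Gabra4, Gabra5, Gabrb1, Gabrb2 and Gabrd, taken by symbol from a table of 30084 gene symbols. All 7 passed the filter on low counts, which kept 16145 genes in all. Of 9 other GABA-A subunit genes used for comparison, 6 passed that filter. The cells were primary neurons of wild-type mice, taken at e16.5 (e for embryonic day) and grown as separate male and female cultures. They carried no mutant allele. Single genes were lowered instead by lentivirus that expresses a hairpin RNA (shRNA) matching the mRNA. Targets were the transcription factor Tbr1 and the regulators Ash1l, Chd8, Dnmt3a, Kdm6b, Kmt2c, Mbd5, Med13l and Setd5, and the controls were a nontargeting shRNA and cultures with no virus. Cultures were rinsed free of virus on day 6 and harvested on day 10, so that every group had the same age. Each of the 11 treatments had 3 libraries per sex, 66 libraries in 22 groups. Each knockdown was compared with the nontargeting group of its sex, whose 6 libraries all 9 comparisons share.

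GABA-A receptors are chloride channels of 5 subunits that open when they bind GABA, the main inhibitory transmitter of the adult brain. Alpha and beta subunits form the GABA binding sites, and the alpha subunit largely sets where a receptor sits and which drugs it binds. Receptors with a gamma subunit gather at synapses, where gephyrin (Gphn) holds them. Receptors with the delta subunit lie outside synapses and carry a steady, tonic current. Alpha-5 receptors are mostly outside synapses too, and alpha-2, alpha-3 and alpha-5 are prominent in the immature forebrain. In young neurons chloride can flow outward through these channels, until the exporter KCC2 (Slc12a5) rises.

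Total counts per library ranged from 13759741 to 66558546, and each member had at least 264 counts in every library. Levels are given as CPM, counts scaled to a common library size, with the library sizes corrected by the trimmed mean of M values (TMM). The targeted gene averaged 22.3% to 54.3% of its nontargeting level in the 18 knockdown groups, and all 9 targets passed the test with the sexes averaged. Within these groups 2 male libraries went against their label. Setd5 stood at 141 CPM and Kdm6b at 23.1 in the male library labelled replicate 1 of Setd5 shRNA. Setd5 stood at 44.9 CPM and Kdm6b at 39.9 in the male library labelled replicate 1 of Kdm6b shRNA. The nontargeting male libraries had 133 to 149 CPM of Setd5 and 55.1 to 64.9 of Kdm6b. Both libraries were kept under their labels, and member calls that rest on them are given without them too. The labels describe triplicates of wells and name no separate animals or cultures, so p-values measure the spread between these libraries, which may be technical.

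The 7 genes lie on 5 chromosomes (mm10, GENCODE M21, all protein-coding). Gabra2 is on chromosome 5 from 70957597 to 71095849, minus strand. Gabra4 follows at 71569749 to 71658308, minus strand, and Gabrb1 at 71658113 to 72149037, plus strand. The Gabra4 and Gabrb1 models start head to head and share 196 bases. The strand setting of the counting is not given in the sources used here, so reads from those shared bases cannot be assigned with certainty. Gabra5 is on chromosome 7 from 57407672 to 57510059, minus strand, beside Gabrg3. Gabrb2 is on chromosome 11 from 42419757 to 42629028, plus strand, beside Gabra6. Gabrd is on chromosome 4 from 155384980 to 155398112, minus strand, and Gabra3 on chromosome X from 72432681 to 72656848, minus strand. Gabrd has the shortest span of the 7 (13.1 kb) and Gabrb1 the longest (491 kb).

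Promoter sequence is shown for 3 members that passed a test below, Gabrb2, Gabra4 and Gabra5, as the stretch before the RefSeq start site (GRCm38.p6, the same assembly as mm10), on the gene's own strand. RefSeq entries matched 6 of the 7 members, all but Gabrd. Capitals mark a TATA box (TATAAA). Gabrb2 is chr11:42420190-42420439, plus strand, the first of its 3 listed starts. This stretch lies inside the Gabrb2 model above, which starts farther upstream. Gabra5 is chr7:57510060-57510309, minus strand. Gabra4 is chr5:71658364-71658558, minus strand, a stretch that lies inside the Gabrb1 model, without the 55 bases next to its start.
Gabrb2: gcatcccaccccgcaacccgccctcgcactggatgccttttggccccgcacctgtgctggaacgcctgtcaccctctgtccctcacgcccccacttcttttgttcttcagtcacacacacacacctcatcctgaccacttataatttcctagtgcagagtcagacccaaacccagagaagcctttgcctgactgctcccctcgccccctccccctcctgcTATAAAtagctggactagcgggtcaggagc
Gabra5: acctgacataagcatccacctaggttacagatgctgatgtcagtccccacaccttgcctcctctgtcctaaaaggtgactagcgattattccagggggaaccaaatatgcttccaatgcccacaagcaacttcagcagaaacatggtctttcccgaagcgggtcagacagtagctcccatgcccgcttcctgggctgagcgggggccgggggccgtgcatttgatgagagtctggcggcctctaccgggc
Gabra4: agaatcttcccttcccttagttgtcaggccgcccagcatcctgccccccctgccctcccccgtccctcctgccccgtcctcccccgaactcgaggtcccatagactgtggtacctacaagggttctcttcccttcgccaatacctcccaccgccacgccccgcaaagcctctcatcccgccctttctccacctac

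The 250 bases before each listed start were searched on both strands for 5 motifs. TATAAA was found in the printed Gabrb2 promoter, 30 bases before the start. The 2 Gabra3 promoters overlap and hold the same single copy, on the opposite strand, 123 and 235 bases before their starts. On either strand TATAAA occurs in 12.4% of the 32851 RefSeq promoters of that length. The others were a cyclic AMP response element (TGACGTCA, in 1.55% of promoters), an EGR site (GCGTGGGCG, 0.536%), a T-box site (AGGTGTGA, 1.12%) and an E-box (CACGTG, 6.02%). None of these 4 was found in a member's promoter, which says only that these letters are not in these windows. The promoters also differed in CpG dinucleotides. Gabra2 and the first Gabrb1 promoter held 18 each, Gabra4 12, Gabra5 9 and both Gabra3 promoters 0, against a median of 6 over all promoters.

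Levels of different genes are comparable only per length, so CPM was divided by the kilobases of merged exons. On that scale Gabra5 was the most abundant member, with a median over the 66 libraries of 55.4 CPM per kb. In nontargeting libraries Gabra5 was at 54.7 ± 2.71 in males and 56.6 ± 6.19 in females (SD, n = 3). Gabra2, Gabra3 and Gabrb2 followed with medians of 26.4, 23.6 and 22.7 CPM per kb. Their nontargeting ranges overlapped, except that in females Gabra2 (26.0 to 37.2) lay above Gabra3 (21.5 to 25.2). Gabrb1 and Gabra4 had medians of 12.2 and 11.2, again with overlapping nontargeting ranges. Gabrd was the lowest member at 7.16, level with Gabrg1, at 7.16 too. Gabrq, Gabrr1, Gabrr2 and Gabre stayed under 1 CPM per kb by their medians, and Gabra6, Gabrp and Gabrr3 never exceeded 6 counts in a library.

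**Figure D1:**
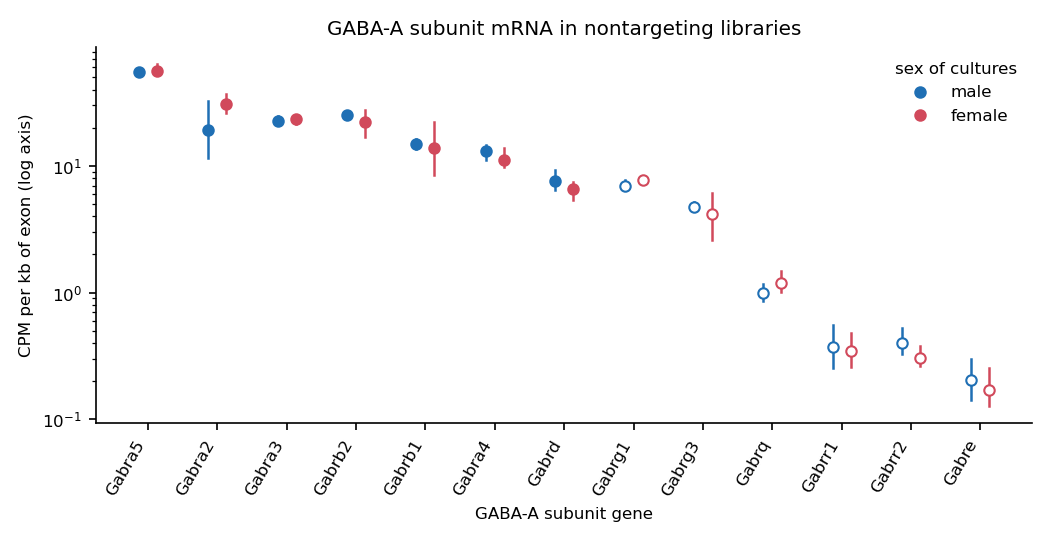
Level of 13 GABA-A subunit genes in the nontargeting libraries, in CPM per kb of merged exons on a log axis. Circles are the mean of 3 libraries per sex, filled for the 7 members and open for other subunits, and vertical lines run from the lowest to the highest library. Gabra5 is the highest of the filled circles and Gabrd the lowest.

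No member passed the test between the sexes in nontargeting libraries (edgeR quasi-likelihood test, Benjamini-Hochberg adjustment over all 16145 genes, threshold 0.05), where 0.0434% of all genes did. None had an unadjusted p under the same threshold, and DESeq2 and limma-voom called 0 too. The X-linked Gabra3 was at 88.7 ± 7.38 CPM in males and 91.4 ± 7.22 in females (SD, n = 3). The widest log2 difference, males minus females, was that of Gabra2, at -0.66. Its level was 148 ± 88.3 CPM in males and 234 ± 44.7 in females (SD, n = 3). Nontargeting virus against no virus likewise gave 0 of 14 member values in edgeR, DESeq2 and limma-voom, 0 at an unadjusted p under the threshold, and 0% of all genes in either sex. The widest virus effect was that of Gabrd in females, a log2 difference of 0.30 (SE 0.18).

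With the sexes averaged, 4 of the 63 combinations of member and knockdown passed the edgeR test, and 13 had an unadjusted p under the threshold. Gabrb2 and Gabra4 fell after Med13l knockdown, Gabra5 rose after Chd8 knockdown and Gabrd rose after Setd5 knockdown. Over all genes the same test called 24.1% after Med13l (12.3% lower), 22.3% after Chd8 (9.85% higher) and 5.3% after Setd5 knockdown (1.83% higher). The members' shares, 2, 1 and 1 of 7, are therefore near the background for Med13l and Chd8. For Setd5 knockdown 1 is the smallest count above 0, and 7 genes are too few to set it apart from the 5.3%. In the other 6 knockdowns 0 of 7 members passed, where the test called 6.16% of all genes for Ash1l, 1.4% for Dnmt3a, 0.966% for Kdm6b, 0.694% for Kmt2c, 0.663% for Mbd5 and 1.33% for Tbr1. At an unadjusted p under the threshold these 6 had 2, 1, 0, 1, 1 and 2 members. DESeq2 and limma-voom each called 4 of the 63.

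**Figure D2:**
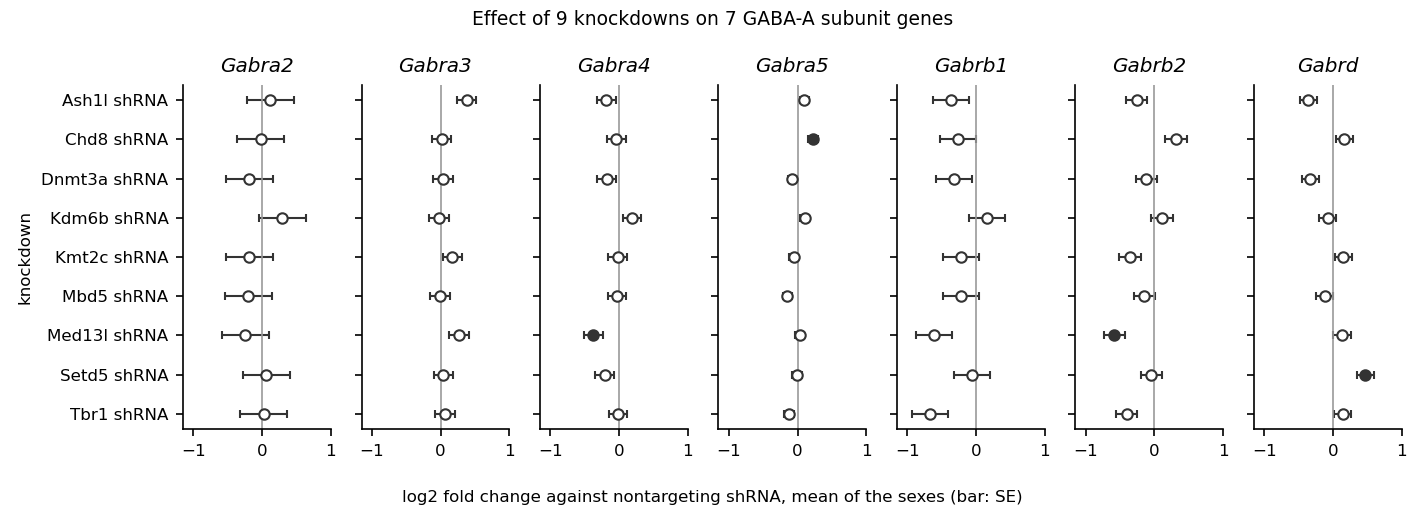
Log2 fold change of each member (panels) in each knockdown (rows) against nontargeting shRNA, averaged over the sexes. Points are the fitted values from 6 knockdown and 6 nontargeting libraries, bars are 1 standard error, and filled points passed the edgeR test. The 4 filled points are Gabra4 and Gabrb2 after Med13l, Gabra5 after Chd8 and Gabrd after Setd5 knockdown.

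Among the alpha subunits, Gabra4 encodes alpha-4, which often joins the delta subunit in receptors outside synapses. Its CPM in nontargeting libraries was 88.3, 67.4 and 82.6 in males and 60.4, 84.1 and 59.3 in females. After Med13l knockdown it was 53.1, 63.2 and 56.8 in males and 44.9, 69.3 and 52.7 in females. The male groups did not overlap. In females 2 of the 3 Med13l libraries were below every nontargeting library and replicate 2 was not. Each of the 3 was below the nontargeting library of its own number. Replicate 2 had the highest Gabra4 in 11 of 11 female groups. Between replicate numbers lay 58.9% of the log2 variation in females and 9.28% in males. The sex-averaged log2 fold change was -0.37 (SE 0.14, adjusted p = 0.0384 in edgeR), with the male value at -0.46 (SE 0.19, adjusted p = 0.142) and the female at -0.29 (SE 0.19, adjusted p = 0.375). Without any 1 of 7 libraries the averaged call was lost: Med13l shRNA male replicates 1 and 3, Med13l shRNA female replicates 1 and 3, nontargeting male replicates 1 and 3 and nontargeting female replicate 2, with adjusted p up to 0.168. It was also lost with no virus as the control (0.0961), with no filter on low counts (0.0559) and in a fit of these libraries alone (0.0624).

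Gabra5 encodes alpha-5, known from tonic inhibition in the hippocampus. It was the least variable member, with 135 to 211 CPM over the 66 libraries. Nontargeting libraries had 166, 153 and 168 CPM in males and 155, 189 and 161 in females. Chd8 knockdown libraries had 193, 190 and 178 in males and 198, 194 and 205 in females. All 6 Chd8 libraries lay above the highest nontargeting library of their sex. The averaged log2 fold change was 0.22 (SE 0.07, adjusted p = 0.0186 in edgeR), a 1.17-fold rise. The male value of 0.20 and the female value of 0.24 (SE 0.10 each) did not pass singly, with adjusted p = 0.240 and 0.132. The averaged call was lost without nontargeting male replicate 2 (0.0548) or nontargeting female replicate 1 (0.0633). With the replicate number as a block, where 21.1% of all genes passed, the female value was called too (0.25, adjusted p = 0.0270).

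After Med13l knockdown Gabra5 had 162, 165 and 165 CPM in males and 166, 172 and 184 in females, inside the nontargeting range of each sex. Its averaged log2 difference was 0.03, with a 95% interval of -0.11 to 0.17. The contrast of Chd8 against Med13l knockdown was tested directly, and 36.9% of all genes passed it. Gabra5 was higher after Chd8 than after Med13l knockdown by 0.19 (SE 0.07, adjusted p = 0.0295 in edgeR). This call was lost without any 1 of 5 libraries, which are Chd8 shRNA male replicates 1 and 2, Chd8 shRNA female replicate 3, Med13l shRNA male replicate 1 and Med13l shRNA female replicate 1, with adjusted p up to 0.0682. Gabra4 passed at 0.33 (SE 0.14, adjusted p = 0.0495), so close to the threshold that leaving out 45 of the 66 libraries, 1 at a time, lost it.

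Gabra2 and Gabra3 encode the alpha subunits that predominate in fetal and newborn forebrain, and neither passed in any knockdown. Gabra2 varied more with replicate number than with treatment. In the 33 male libraries its level ran from 61.4 to 367 CPM, and replicate 1 was the highest of the 3 in 10 of 11 groups. Male replicate 1 libraries had 144 to 367 CPM (median 221), replicate 2 79.6 to 241 (median 94.3) and replicate 3 61.4 to 108 (median 84.5). The exception was Ash1l shRNA, with 144, 241 and 89.6 CPM for replicates 1, 2 and 3. In males 75.6% of the variation of log2 CPM lay between replicate numbers and 7.17% between groups. Female libraries held 147 to 328 CPM, and replicate 2 was the highest in 8 of 11 groups. The standard error of a Gabra2 effect was accordingly 0.34 with the sexes averaged, against 0.07 for Gabra5, and the averaged 95% interval for Med13l ran from -0.91 to 0.43.

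**Figure D3:**
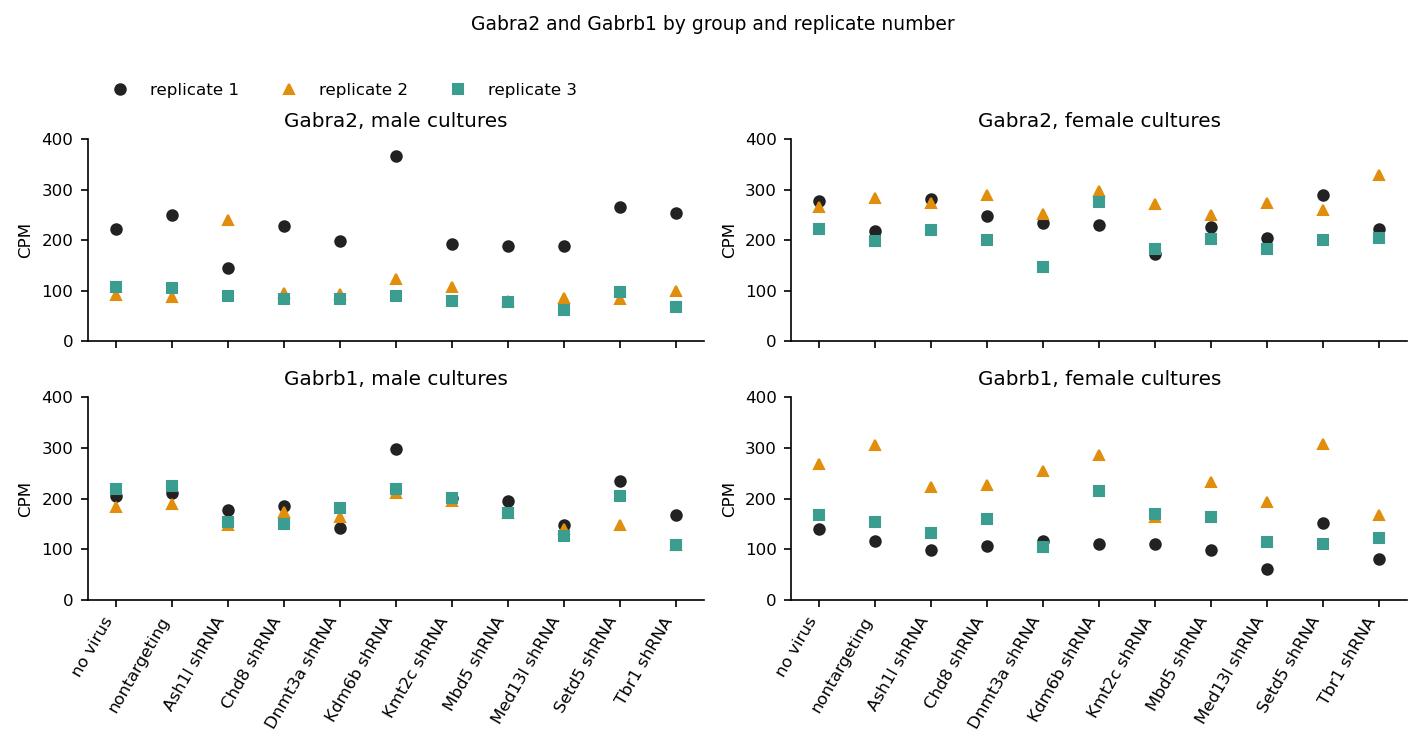
CPM of Gabra2 (top) and Gabrb1 (bottom) in the 11 groups of male (left) and female (right) cultures, 1 point per library, with the marker giving the replicate number. Male replicate 1 has the highest Gabra2 in 10 of 11 groups, and female replicate 2 has the highest Gabrb1 in 10 of 11.

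Gabra3 was at 83.3, 97.1 and 85.7 CPM in nontargeting males and 98.7, 84.3 and 91.2 in nontargeting females. Its highest averaged value was after Ash1l knockdown, with 112, 105 and 135 CPM in males and 132, 96.3 and 122 in females. There 5 of 6 libraries lay above the nontargeting range, and the log2 difference was 0.38 (SE 0.14, adjusted p = 0.109 in edgeR, not passed). Med13l knockdown gave 104, 95.8 and 126 CPM in males and 131, 83.1 and 112 in females, a log2 difference of 0.27 (SE 0.14, adjusted p = 0.163). In females replicate 1 had the highest Gabra3 in 11 of 11 groups, and 63.2% of the log2 variation lay between replicate numbers. In males 1.88% of it lay between replicate numbers and 51.0% between groups.

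Of the beta subunits, Gabrb2 encodes beta-2, a major beta subunit of the adult brain. Its CPM in nontargeting libraries was 154, 160 and 170 in males and 108, 175 and 144 in females. After Med13l knockdown it was 132, 147 and 99.6 in males and 49.3, 102 and 90.9 in females. All 6 Med13l libraries lay below the lowest nontargeting library of their sex, and the female replicate 1 value was the lowest of all 66. The group mean was 78.3% of nontargeting in males and 56.8% in females. The averaged log2 fold change was -0.58 (SE 0.16, 95% interval -0.89 to -0.28, adjusted p = 0.00413 in edgeR). It passed when each of the 66 libraries was left out in turn, with log2 values from -0.69 to -0.45 and adjusted p up to 0.0346.

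By sex, Gabrb2 after Med13l was the 1 of 63 female values that passed (log2 -0.82, SE 0.22, adjusted p = 0.0106 in edgeR), in a comparison where 10.2% of all genes did. That call was lost without nontargeting female replicate 2 (0.117) or Med13l shRNA female replicate 1 (0.212), and in a fit of the libraries compared alone (0.321). In males the value was -0.35 (SE 0.22, adjusted p = 0.375), where 8.06% of all genes passed. Male and female effects differed by 0.46 (SE 0.31, adjusted p = 1), which was not a detectable difference. In males 0 of 63 member values passed in edgeR, DESeq2 or limma-voom, and 4 had an unadjusted p under the threshold. Those 4 were 2 for Ash1l, 1 for Med13l and 1 for Setd5, beside 1826, 3374 and 865 of all genes. In males the share of all genes called was 1.98% for Ash1l, 9.84% for Chd8, 0.111% for Dnmt3a, 0.0867% for Kdm6b and Kmt2c each, 0.0619% for Mbd5, 0.0557% for Setd5 and 0.217% for Tbr1. In females it was 1.1% for Ash1l, 9.33% for Chd8, 0.118% for Dnmt3a, 0% for Kdm6b, 0.0991% for Kmt2c, 0.0557% for Mbd5, 3.12% for Setd5 and 0.0619% for Tbr1. The difference between the sexes was called for 0 of 63 member values by edgeR, DESeq2 and limma-voom, 0 had an unadjusted p under the threshold, and 0.0186% of all genes were called for Setd5 and 0% for each of the other targets.

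Chd8 knockdown gave the other extreme of Gabrb2. Its libraries had 220, 214 and 183 CPM in males and 157, 167 and 195 in females, and the male replicate 1 value was the highest of all 66. In males all 3 lay above the nontargeting range, in females 1 of 3 did. The averaged log2 difference was 0.32 (SE 0.16, adjusted p = 0.148 in edgeR), which did not pass. Replicate numbers paired the Chd8 and nontargeting libraries in both sexes, and with the number as a block Gabrb2 passed (0.33, adjusted p = 0.0417), as did 36.9% of all genes. In the direct contrast Gabrb2 was higher after Chd8 than after Med13l knockdown by 0.90 on the log2 scale (SE 0.16, adjusted p = 6.9e-06), a 1.87-fold difference. The 12 libraries of the 2 knockdowns did not overlap within either sex. Gabrb2 passed this contrast in all 66 leave-one-out fits.

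**Figure D4:**
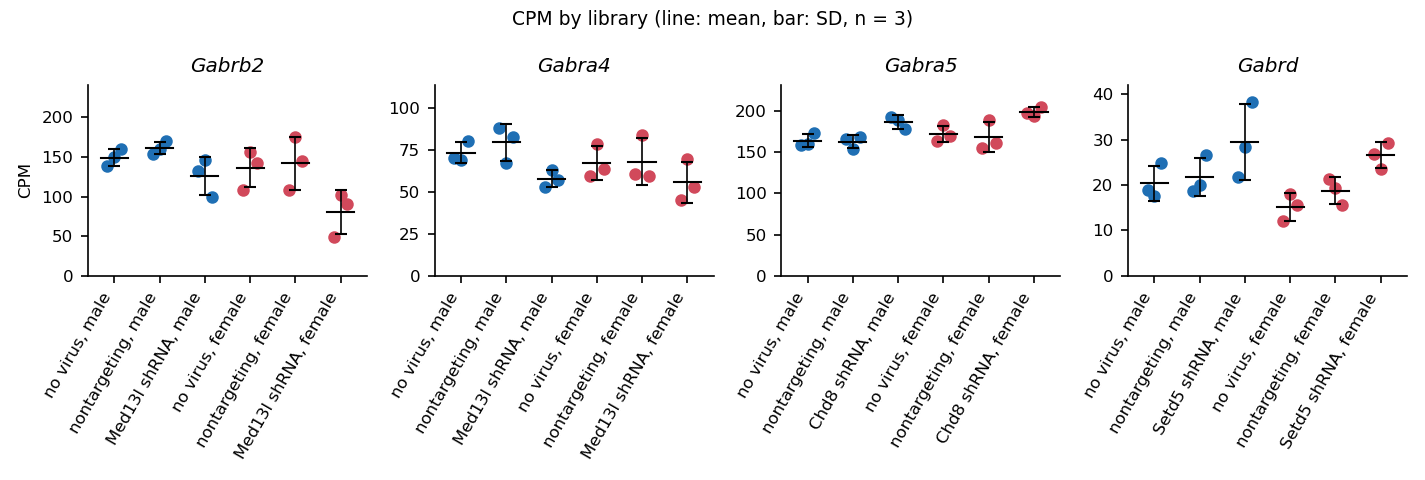
CPM per library for the 4 combinations that passed with the sexes averaged: Gabrb2 and Gabra4 with Med13l, Gabra5 with Chd8 and Gabrd with Setd5 shRNA, beside the no virus and nontargeting groups. Points are libraries, horizontal lines the mean and bars the SD of 3. All 6 Med13l points for Gabrb2 lie below, and all 6 Chd8 points for Gabra5 above, the nontargeting points of the same sex.

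Gabrb1 encodes beta-1, the head-to-head neighbour of Gabra4. Its nontargeting libraries had 210, 188 and 225 CPM in males and 116, 305 and 154 in females. After Med13l knockdown it had 147, 140 and 127 CPM in males and 60.8, 194 and 114 in females. The male groups did not overlap, while female replicate 2 of the Med13l group lay above 2 of the 3 nontargeting libraries. The averaged log2 difference was -0.62 (SE 0.26, adjusted p = 0.0795 in edgeR), as large as that of Gabrb2 but not passed. Tbr1 knockdown gave 168, 109 and 108 CPM in males and 80.2, 168 and 121 in females, a log2 difference of -0.67 (SE 0.26, adjusted p = 0.285). In females replicate 2 had the highest Gabrb1 in 10 of 11 groups (163 to 309 CPM, against 60.8 to 151 in replicate 1). There 68.8% of the log2 variation lay between replicate numbers, while in males 9.53% did and 71.2% lay between groups. Where numbers paired the libraries, the fit with the replicate number as a block gave a Gabrb1 fall after Tbr1 knockdown (averaged -0.65, adjusted p = 3.5e-04, with males at -0.71 and 0.0160) and, in females, after Med13l knockdown (-0.66, adjusted p = 0.00324). Under that block 6.57% of all genes passed for averaged Tbr1, 1.75% for male Tbr1 and 27.9% for female Med13l. Gabrb2 after Tbr1 knockdown was at -0.41 (SE 0.16, adjusted p = 0.267) without the block.

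The neighbours on chromosome 5 varied together across libraries. Pearson's r of log2 CPM between Gabra4 and Gabrb1 was 0.756 over 66 libraries, 0.730 in the 33 male and 0.762 in the 33 female libraries. It was the highest of the 21 pairs of members. Gabrb1 and Gabrb2, on different chromosomes, had r = 0.720, and Gabra4 and Gabrb2 r = 0.547. The r of Gabra3 was -0.580 to Gabrb1 (-0.273 in males and -0.694 in females) and -0.540 to Gabra4 (-0.294 and -0.663), while to Gabra2 and Gabra5 it was -0.033 and -0.069. Gabra2, on chromosome 5 as well, had r = 0.173 to Gabra4 over all libraries, but 0.432 within males and 0.677 within females. These values describe libraries that share treatments, replicate numbers and scaling, and for Gabra4 and Gabrb1 also the 196 bases above.

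**Figure D5:**
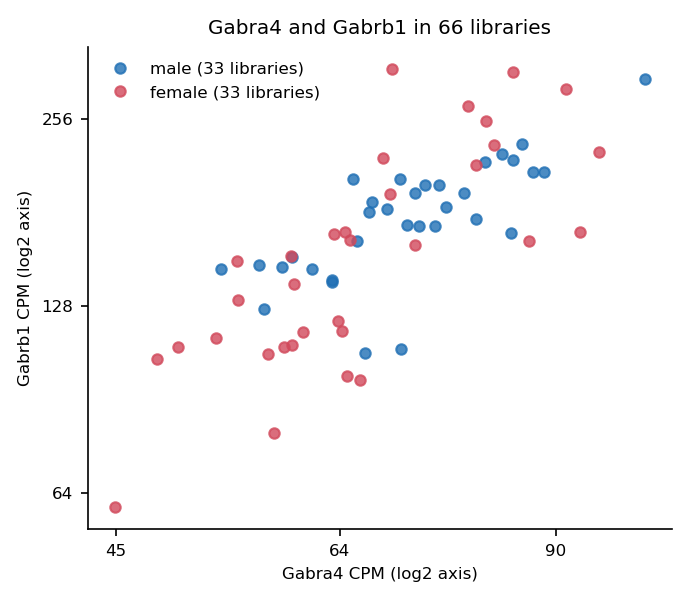
CPM of Gabra4 against Gabrb1, both on log2 axes, with 1 point for each of 66 libraries coloured by sex. Libraries with more Gabra4 have more Gabrb1 in both sexes, and the Med13l shRNA female replicate 1 library is the lowest on both axes.

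The delta subunit gene, Gabrd, was the member that rose after Setd5 knockdown. Its CPM in nontargeting libraries was 18.7, 20.0 and 26.6 in males and 21.4, 19.3 and 15.5 in females. Setd5 shRNA libraries had 21.7, 28.5 and 38.3 in males and 26.9, 23.6 and 29.3 in females. All libraries but Setd5 shRNA male replicate 1, the one that went against its label, lay above the nontargeting range of their sex. The averaged log2 fold change was 0.47 (SE 0.13, adjusted p = 0.0154 in edgeR). Without the 2 libraries that went against their label it was 0.56 (adjusted p = 0.00177). The call was lost without nontargeting male replicate 1 (0.0596), nontargeting female replicate 3 (0.0660) or Setd5 shRNA male replicate 3 (0.118), and in a fit of these libraries alone (0.190). The female value was 0.50 (SE 0.18, adjusted p = 0.111), and with the block, under which 13% of all genes passed, 0.51 (adjusted p = 0.0216). The other library that went against its label was Kdm6b shRNA male replicate 1. With Setd5 at 44.9 CPM, it had 24.9 CPM of Gabrd, inside the nontargeting male range.

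The lowest sex-averaged Gabrd difference came with Ash1l knockdown, at 16.3, 17.9 and 13.0 CPM in males and 18.3, 15.2 and 14.0 in females. Of these, 5 of 6 lay below the nontargeting range, and the averaged log2 difference was -0.36 (SE 0.13, adjusted p = 0.0816 in edgeR, not passed). Dnmt3a knockdown was at -0.33 (SE 0.13, adjusted p = 0.256), and its female replicate 1 held the lowest Gabrd of any knockdown library, 12.1 CPM. A joint test of any difference among the 10 infected groups called Gabrd in both sexes (adjusted p = 0.00403 in males and 0.00221 in females, edgeR). It also called Gabra5 in males (0.0142) and Gabrb2 in females (0.00271). This makes 4 of 14 member values, beside 27.6% of all genes in males and 31.8% in females. Against no virus rather than nontargeting cultures, Gabrd was also called after Chd8 (averaged adjusted p = 0.0278 in edgeR) and Med13l knockdown (0.0477). Neither passed against nontargeting. There the Chd8 means were 120% of nontargeting in females and 105% in males, and the Med13l means 122% and 99.0%. Gabrd was lower in no virus than in nontargeting cultures, at 15.2 and 18.7 CPM in females and 20.4 and 21.8 in males. That difference did not pass. The share of all genes called against no virus is not given here.

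Kdm6b knockdown had the highest Gabra2, Gabra4, Gabra5 and Gabrb1 values of the male cultures, and all 4 came from the library labelled Kdm6b shRNA male replicate 1. They were 367, 104, 211 and 297 CPM. With that library the averaged Gabra2 difference was 0.29, and without the 2 libraries that went against their label it was -0.14. Male replicate 1 was also the number with the highest Gabra2 in most groups, and the Kdm6b replicates 2 and 3 that remained, at 123 and 89.5 CPM, were set against nontargeting males at 249, 88.4 and 106. Label and replicate number cannot be told apart here. No member passed for Kdm6b with or without the 2 libraries.

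In the knockdowns without a member call, the other sex-averaged log2 differences did not pass either. All 7 were below 0 after Mbd5 knockdown, at -0.20 for Gabra2, -0.01 for Gabra3, -0.03 for Gabra4, -0.15 for Gabra5, -0.22 for Gabrb1, -0.15 for Gabrb2 and -0.12 for Gabrd. After Dnmt3a knockdown 6 of 7 were below 0, at -0.19 for Gabra2, -0.18 for Gabra4, -0.07 for Gabra5, -0.32 for Gabrb1 and -0.12 for Gabrb2 besides Gabrd, with Gabra3 at 0.04. Kmt2c knockdown gave -0.19 for Gabra2, 0.17 for Gabra3, -0.02 for Gabra4, -0.06 for Gabra5, -0.22 for Gabrb1, -0.36 for Gabrb2 and 0.15 for Gabrd. Gabrb2 had 83.3, 64.8 and 127 CPM in those females, where 2 of 3 lay below the nontargeting range, and 144, 159 and 155 in males. After Tbr1 knockdown Gabra2, Gabra3 and Gabra4 were at 0.02, 0.06 and -0.02, Gabra5 at -0.12 and Gabrd at 0.14. After Kdm6b knockdown Gabra3 and Gabrd were at -0.02 and -0.07, and Gabra4, Gabra5, Gabrb1 and Gabrb2 at 0.19, 0.10, 0.16 and 0.11.

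Beside the calls, the other members did not pass. After Setd5 knockdown Gabra4 was at -0.21, Gabrb1 and Gabrb2 at -0.05 each, Gabra5 at -0.01, Gabra2 at 0.06 and Gabra3 at 0.04. After Chd8 knockdown Gabrb1 was at -0.26, Gabrd at 0.17, and Gabra2, Gabra3 and Gabra4 at -0.02, 0.02 and -0.04. After Med13l knockdown Gabra2 was at -0.24 and Gabrd at 0.13. Ash1l knockdown, which gave no member call, had Gabrb1 at -0.37, Gabrb2 at -0.26, Gabra4 at -0.19, Gabra2 at 0.12 and Gabra5 at 0.10.

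The genes named as most like each member were among the 3 with the highest r of log2 CPM over the 66 libraries, given as a description. For Gabrb1 they were Fat3 (0.901), Med13 (0.899) and Dip2c (0.894), and for Gabrb2 Klf12 (0.872), Pde10a (0.858) and Faxc (0.855). Gabra4 was closest to Slc2a13 (0.853) and to the potassium channel gene Kcnd2 (0.845). Gabra3 was closest to Zfp932 (0.827), Frmd3 (0.819) and the calcium buffer Calb1 (0.815), and Gabra5 to Sec23a (0.792), Rnf182 (0.790) and Kitl (0.760). Likeness was lower for Gabra2, with Eif2s3x (0.708), 1700048O20Rik (0.697) and Ddx3x (0.680), and for Gabrd, with Stim1 (0.655), Gsn (0.625) and Slc1a1 (0.622). Eif2s3x and Ddx3x are X-linked genes that escape X inactivation, and Gabra2 had a median of 99.7 CPM in male and 235 in female libraries. Its median in male replicate 1 libraries alone was 221 CPM, and its sex difference in nontargeting libraries did not pass.

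The 6 other GABA-A subunit genes tested for comparison gave 0 higher and 3 lower after Chd8 knockdown (Gabrg3, Gabrq, Gabrr1), 0 higher and 2 lower after Med13l knockdown (Gabrg3, Gabrq) and 0 higher and 1 lower after Setd5 knockdown (Gabrr2), with the sexes averaged in edgeR. Over all genes the test called 12.5% lower after Chd8, 12.3% after Med13l and 3.46% after Setd5 knockdown. Gabrr1 and Gabrr2 had at most 54 and 45 counts in a library. The 6 genes' median log2 differences after Chd8 and Med13l knockdown were -0.84 and -0.73, beside 0.02 and -0.24 for the 7 members and 0.00 and -0.01 for all genes. Gabrg3, a gamma subunit, fell by 1.03 (SE 0.23, adjusted p = 7.2e-04) after Chd8 and by 0.73 (SE 0.23, adjusted p = 0.0172) after Med13l knockdown. Gabrq, which encodes the theta subunit, fell by 0.69 (SE 0.23, adjusted p = 0.0218) and 0.98 (SE 0.23, adjusted p = 0.00127) after the same knockdowns.

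On the presynaptic side, 7 genes of GABA synthesis, vesicle loading, uptake and breakdown were tested. After Ash1l knockdown 5 fell, after Chd8 4, after Med13l 4, after Setd5 1 and after Dnmt3a 1, and none rose in any of the 9 knockdowns. Over all genes the share called lower was 3.49% for Ash1l, 12.5% for Chd8, 12.3% for Med13l, 3.46% for Setd5 and 0.923% for Dnmt3a. Slc32a1, which loads GABA into vesicles, fell by 1.23 after Ash1l (adjusted p = 7.0e-07), 0.50 after Chd8 (0.0255), 0.89 after Med13l (6.6e-05) and 0.62 after Setd5 knockdown (0.0175, edgeR). Without the 2 libraries that went against their label the Setd5 value was -0.70 (adjusted p = 0.00632 in edgeR). With all 3 libraries of each Setd5 group kept, Slc32a1 stood at 48.8% of nontargeting in females and 86.8% in males. Gad1, which makes GABA, fell by 1.28 after Ash1l (1.7e-08) and 0.62 after Med13l knockdown (0.00156). Gad2, the other enzyme that makes GABA, fell by 0.47 after Ash1l (0.0432), 0.69 after Chd8 (3.8e-04) and 0.57 after Dnmt3a knockdown (0.0314). Abat, which breaks GABA down, fell by 0.64 after Ash1l (4.4e-04), 0.80 after Chd8 (2.9e-06) and 0.99 after Med13l knockdown (3.6e-08).

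Genes of the inhibitory postsynapse and of receptor trafficking, 21 in all, gave 0 higher and 6 lower after Chd8, 1 higher and 4 lower after Med13l, 0 and 2 after Setd5 and 0 and 1 after Ash1l knockdown. Over all genes 12.5%, 12.3%, 3.46% and 3.49% were called lower in these 4 knockdowns, and 11.8% higher after Med13l, so the 4 of 21 after Med13l and the 1 of 21 after Ash1l are near the background. Without the 2 libraries that went against their label the Setd5 count was 3 lower. Gphn was the 1 that rose, by 0.33 after Med13l knockdown (SE 0.10, adjusted p = 0.0111 in edgeR), from 110 to 142 CPM in females and 117 to 144 in males. Iqsec3, a gephyrin-binding exchange factor, fell by 1.59 (adjusted p = 1.3e-07) after the same knockdown. Shisa7, an auxiliary subunit of GABA-A receptors, fell by 0.86 (2.6e-09) after Chd8 and by 0.34 (0.00881) after Med13l knockdown. Of the GABA-B receptor genes, Gabbr1 fell by 0.40 (2.2e-05) after Chd8 and Gabbr2 by 0.81 (1.3e-05) after Med13l knockdown. Of 5 chloride transport genes, 1 fell after Ash1l (Stk39), 2 after Chd8 and 2 after Med13l knockdown, the latter both with Slc12a5 among them (0.76, adjusted p = 8.9e-08, and 0.41, adjusted p = 0.00176), while the importer Slc12a2 was at 0.04 and 0.08 and did not pass.

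Markers of cell types moved with some of these comparisons. All 13 GABAergic interneuron markers, which include Gad1, Gad2 and Slc32a1, had counts in every group. Their summed level was 2134 to 2347 CPM in nontargeting males and 1868 to 2197 in nontargeting females. It was lowest after Ash1l knockdown, with 1012 to 1467 in males and 1036 to 1340 in females. It was 1323 to 1792 and 1170 to 1996 after Med13l, 1423 to 1931 and 1493 to 1865 after Chd8, and 1911 to 2236 and 1397 to 1941 after Setd5 knockdown. In edgeR 4 of the 13 fell after Ash1l, 3 after Med13l, 3 after Chd8 and 2 after Setd5 knockdown, with 1 higher in each of Chd8 and Setd5. Over all genes 3.49%, 12.3%, 12.5% and 3.46% were called lower in these 4 knockdowns. The shares called higher were 2.67% for Ash1l, 11.8% for Med13l, 9.85% for Chd8 and 1.83% for Setd5. Without the 2 libraries that went against their label the Setd5 counts were 2 lower and 2 higher, and the male range was the same. The 6 pan-neuronal markers summed to 5430 to 5515 CPM in nontargeting males and 5062 to 5883 in females. After Med13l knockdown they summed to 4211 to 4551 and 3718 to 4641, and 1 of 6, Syt1, fell. The 6 log2 differences there ran from -2.34 to 0.01 with a median of -0.09, so the lower sum was not a fall shared by all 6. After Chd8 knockdown the 6 markers summed to 4650 to 5270 in males and 4498 to 4982 in females. These sums were also below the nontargeting libraries of each sex, with Map2 and Syt1 lower and Tubb3 higher. The 7 excitatory markers summed to 830 to 932 CPM in nontargeting males and 905 to 1030 in females, and to 748 to 1249 and 899 to 1241 after Med13l knockdown. Of these, Neurod6 was called higher after Med13l knockdown. After Ash1l knockdown the 7 summed to 999 to 1304 in males and 1022 to 1154 in females, with Slc17a6 higher. After Chd8 knockdown they summed to 723 to 1033 and 791.5 to 920, with Camk2a, Slc17a6 and Slc17a7 lower. The 8 astrocyte markers summed to 355 to 444 and 376 to 524 in the controls, and to 262 to 393 and 279 to 306 after Chd8 knockdown. There Gfap and Slc1a2 were called lower, and the log2 differences ran from -1.81 to 0.47. Sums were low as well after Kmt2c (301 to 391 and 319 to 345) and Tbr1 knockdown (238 to 408 and 289 to 340). The 3 cycling-cell markers all fell after Med13l knockdown, where they summed to at most 1.63 CPM in males and 1.77 in females, against at least 2.82 and 2.78 in the nontargeting libraries. Microglial markers summed to at most 3.25 CPM in any library. The part of cell makeup in the member results was not tested, and in these bulk libraries fewer cells of a type and less RNA per cell cannot be told apart.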

How the data were processed

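The authors deposited 1 table of raw counts of reads per gene, with 48716 rows and 72 library columns. Per the submitters' processing notes, STAR, featureCounts and the mm10 build were used. Their versions and the strand setting are not given in the sources used here. Per the labels' protocols, polyadenylated RNA was made into stranded libraries. The control columns are named for luciferase and were taken as the nontargeting group, and 6 columns of no sample used here were left out. Rows without a symbol (18483, holding 0.69% to 1.41% of each library's counts) were dropped, and 149 rows that repeated a symbol were summed.

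Counts were tested in R 4.3.3 with edgeR 4.0.16 (filterByExpr, TMM factors from 0.874 to 1.06, robust quasi-likelihood F test, 1 mean per group over all 66 libraries) and Benjamini-Hochberg adjustment within each contrast at 0.05. The sex-averaged contrast is the mean of the male and female log2 fold changes. Alternatives used limma 3.58.1, DESeq2 1.42.0 and the settings named at the end. The fitting code was tested on simulated data. Correlations used log2 CPM with a prior count of 2. Counts come from amplified reads, so errors rest on the replicates.

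The labels number replicates alike in every group. Deviations of same-numbered libraries from their group means were correlated between each group and the nontargeting group of its sex. Every pair exceeded 0.1 for Chd8, Dnmt3a, Kmt2c, Mbd5, Setd5 and Tbr1 in both sexes, and for Ash1l and Med13l in females, and these were taken as paired. In Kdm6b (both sexes) and male Ash1l and Med13l at least 1 pair did not. The pairing thus comes from the data. Values with the replicate block are printed beside a result where libraries pair and the call changes.

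All 7 members are named in every knockdown. From other lists, at most 4 genes that passed in most knockdowns are named, besides Gad1, Gad2, Slc32a1, Gphn, Slc12a5 and Slc12a2 and any counted gene said to be chosen later. The members and lists were chosen with earlier results of these data known. Some genes are not reported here and were left out of the lists.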

Additional observations from a re-analysis of the deposited data

How the results depend on the processing

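The sex-averaged count of 4 of 63 was 4 with DESeq2, limma-voom, DESeq2's size factors, halved counts and without the 2 libraries that went against their label. It was 3 with no filter on low counts, 5 with no virus as control and 2 in fits of only the libraries compared. Those last fits gave 3 calls in males and 0 in females, against 0 and 1 in the design used, and no virus as control gave 4 in females. The share of all genes is given here only for the design used and the replicate block. Counts under the other settings thus have no background beside them. With the replicate number as a block the counts were 4 in males, 4 in females, 11 with the sexes averaged, 12 of 14 in the joint test and 5 of 7 in the Chd8 against Med13l contrast. Over all genes the block called 59.5% in males and 64.1% in females in the joint test, and 51.5% in that contrast. With the sexes averaged it called 17.2% for Ash1l, 36.9% for Chd8, 41.5% for Med13l, 16.2% for Setd5 and 6.57% for Tbr1. In males it called 8.27% for Ash1l, 23.8% for Med13l and 1.75% for Tbr1. In females it called 21.1% for Chd8, 27.9% for Med13l and 13% for Setd5. Of the 11, those after Ash1l (Gabra3, Gabrb1, Gabrd) and Med13l knockdown rest on males whose numbers did not pair. Alternatives for the Chd8 against Med13l contrast were chosen after seeing the data, and its count of 3 became 1 with no filter and 1 with only the libraries compared. Leaving out 1 library at a time gave 0 to 0 calls in males, 0 to 2 in females, 2 to 5 with the sexes averaged, 4 to 5 in the joint test, 1 to 4 in the Chd8 against Med13l contrast, and 0 for sex differences, virus and sex. Of 8 single values that passed, no alternative reversed the sign. Values that did not pass either way were not compared for sign. Gabrd has the fewest counts of the members, 264 to 1143 per library. The wide replicate spread of Gabra2, and of Gabrb1 in females, limits what 3 libraries a group can show.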
